A study of Mus musculus with 12 samples.

Results

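The genes described here are 39 named markers and products of hepatic stellate cells and of the contractile, matrix-producing cells that stellate cells can become. The rule that picks them uses gene symbols and no measured value, but the list was chosen with earlier results of these data known. Shares of the list set beside those of all tested genes are therefore descriptive. The list holds the contractile genes Acta2, Tagln, Myl9 and Tpm2, the intermediate filament genes Des and Vim, the stellate marker Reln, the proteoglycan genes Dcn, Lum and Bgn, 10 collagen genes, 3 lysyl oxidase genes, 6 glycoprotein and elastic fibre genes, 2 matrix metalloproteinases, 3 of their inhibitors, 3 TGF-beta ligands and 2 PDGF receptors. All 39 were among the 13554 genes of the deposited table, and all 39 were among the 12570 genes that reached 10 normalised reads in at least 3 libraries and were tested.

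RNA was sequenced from livers on postoperative day 3 of partial hepatectomy. All mice were male, wild type and of strain C57Bl/6J. There were 4 groups of 3 libraries. PH70 had 70% of the liver removed and PH80 had 80% removed. PH80_HC had the 80% resection and an arm named HC, which the labels do not spell out, and PH80_G+H had the 80% resection with G-CSF and HNF4a, whose dose and route the labels do not give. No unoperated liver is among the samples analysed here, so each level is that of a liver after resection. Whether each library is 1 animal is not stated, so the p-values measure the spread between libraries, which may be technical.

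Stellate cells lie between the hepatocytes and the sinusoidal endothelium, where at rest they store vitamin A. After injury they can take on a myofibroblast form, with smooth muscle actin fibres and secretion of fibrillar collagen. TGF-beta is the best known inducer of their collagen genes, and PDGF acting on its beta receptor drives their growth. In a regenerating liver the matrix is first loosened by proteases and later rebuilt. In whole liver, fewer cells of a type and less RNA per cell cannot be told apart.

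Values are normalised reads, the deposited reads of a gene divided by a factor for its library. Depth ran from 9720887 recovered reads in PH70 replicate 3 to 44526542 in PH80_G+H replicate 2. None of 7 hepatocyte genes was at 0 in any library. Libraries of the same group differed in how their values ran with transcript length: the slope of a library's log2 deviation per doubling of length ran from -0.28 in PH80_HC replicate 3 to 0.23 in PH80_G+H replicate 2. Results were therefore also computed with that trend removed. How the authors' counting treated strand is not given in the sources. This bears on Tagln, which shares 1241 exonic bases with the antisense gene Gm48529, on Timp3, which shares 1733 with Syn3, and on Fbn1, which shares 2442 with Gm9913.

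Promoter sequences were matched in RefSeq for 25 of the 39 genes, on build GRCm38.p6. Those of 3 genes are printed, because Acta2 and Myl9 are contractile genes that went different ways within the groups and Col1a2 was the gene most like Col1a1. Each is the 250 bases before the start annotated in RefSeq, 5′ to 3′ on the gene's strand. Gene coordinates given further on come from GENCODE, whose start differs from that of RefSeq for all 3 genes. Capitals mark CArG boxes, the letters bound by serum response factor, which have CC, a middle of A and T, and GG, or such a box with 1 G or C in the middle. In Col1a2 they also mark CCAAT, the letters bound by nuclear factor Y.
Acta2, chr19:34255374-34255623, minus strand: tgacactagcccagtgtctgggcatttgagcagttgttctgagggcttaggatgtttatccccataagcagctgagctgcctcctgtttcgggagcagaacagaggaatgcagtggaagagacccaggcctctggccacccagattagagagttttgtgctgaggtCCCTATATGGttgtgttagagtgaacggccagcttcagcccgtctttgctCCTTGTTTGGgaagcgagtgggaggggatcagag
Myl9, chr2:156775214-156775463, plus strand: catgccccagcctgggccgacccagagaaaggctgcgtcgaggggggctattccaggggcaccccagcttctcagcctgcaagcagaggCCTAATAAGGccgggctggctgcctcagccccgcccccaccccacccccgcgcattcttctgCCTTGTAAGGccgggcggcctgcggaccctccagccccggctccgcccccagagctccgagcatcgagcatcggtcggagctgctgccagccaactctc
Col1a2, chr6:4505368-4505617, plus strand: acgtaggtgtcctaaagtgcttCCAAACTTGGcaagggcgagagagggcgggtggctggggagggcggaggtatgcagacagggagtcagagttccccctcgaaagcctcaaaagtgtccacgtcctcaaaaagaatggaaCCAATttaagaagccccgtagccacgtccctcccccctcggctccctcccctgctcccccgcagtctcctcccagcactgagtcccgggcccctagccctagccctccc

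The capitals in Acta2 lie 84 to 75 and 34 to 25 bases upstream of the start, and each needs the 1 G or C that was allowed. In Myl9 they lie 161 to 152 and 99 to 90 bases upstream, and the box at 99 to 90 needs the 1 G or C. In Col1a2 a box with the 1 G or C allowed lies 228 to 219 bases upstream and CCAAT 109 to 105. On both strands, a CArG box stood in 1.47% of 32851 RefSeq promoters of this length and in 1 matched member, Myl9. With 1 G or C allowed it stood in 8.59% of promoters and in 6 members, Acta2, Col1a2, Col6a3, Mmp14, Myl9 and Timp3. CCAAT stood in 33.8% of promoters and in 8 members. These are matches of letters only, and no binding was measured.

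Most of the 39 genes had their lowest mean level in the PH80_HC group. The lowest of the 4 group means was that of PH80_HC for 31 of 39 genes, against 25.5% of all tested genes. The highest was that of PH80 for 25 of 39, against 26.3% of all tested genes. Against PH80, the mean log2 level in PH80_HC was lower for 35 of 39, with a median log2 difference of -0.68, whereas 48.5% of all tested genes were lower and their median was 0.01. The 4 that were not lower were Reln, Fn1, Postn and Mmp14.

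No single gene of the 39 passed the threshold of 0.05 for an adjusted p in that comparison (limma, Benjamini-Hochberg over all 12570 genes, on log2 of the value plus 1), in which 0.891% of all tested genes were called. At an unadjusted p under 0.05 there were 19 of 39, against 14.3% of all tested genes. edgeR on the recovered reads called 1 of 39, Tagln, and 0.923% of all tested genes. DESeq2 called 2, Tagln and Col6a3, and 4% of all tested genes. Limma also called Tagln alone with every library at the same total (0.572% of all tested genes), with the length and GC trend removed (2.07%) and without PH80 replicate 2 (0.679%). For 15 of 39 genes all 3 libraries of PH80_HC lay below all 3 of PH80, which held for 7.38% of tested genes, and for 0 of 39 they all lay above, against 8.26%. With a library left out the count was 17 to 23, highest without PH80 replicate 3, where 10.9% of tested genes lay apart, and without PH80_HC replicate 1, where it was 12.2%. With every library set to the same total, which moved the median of all tested genes to -0.31, it was 25 genes against a background of 18.9%, and the members' median stayed 0.69 below that of all genes.

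**Figure D1:**
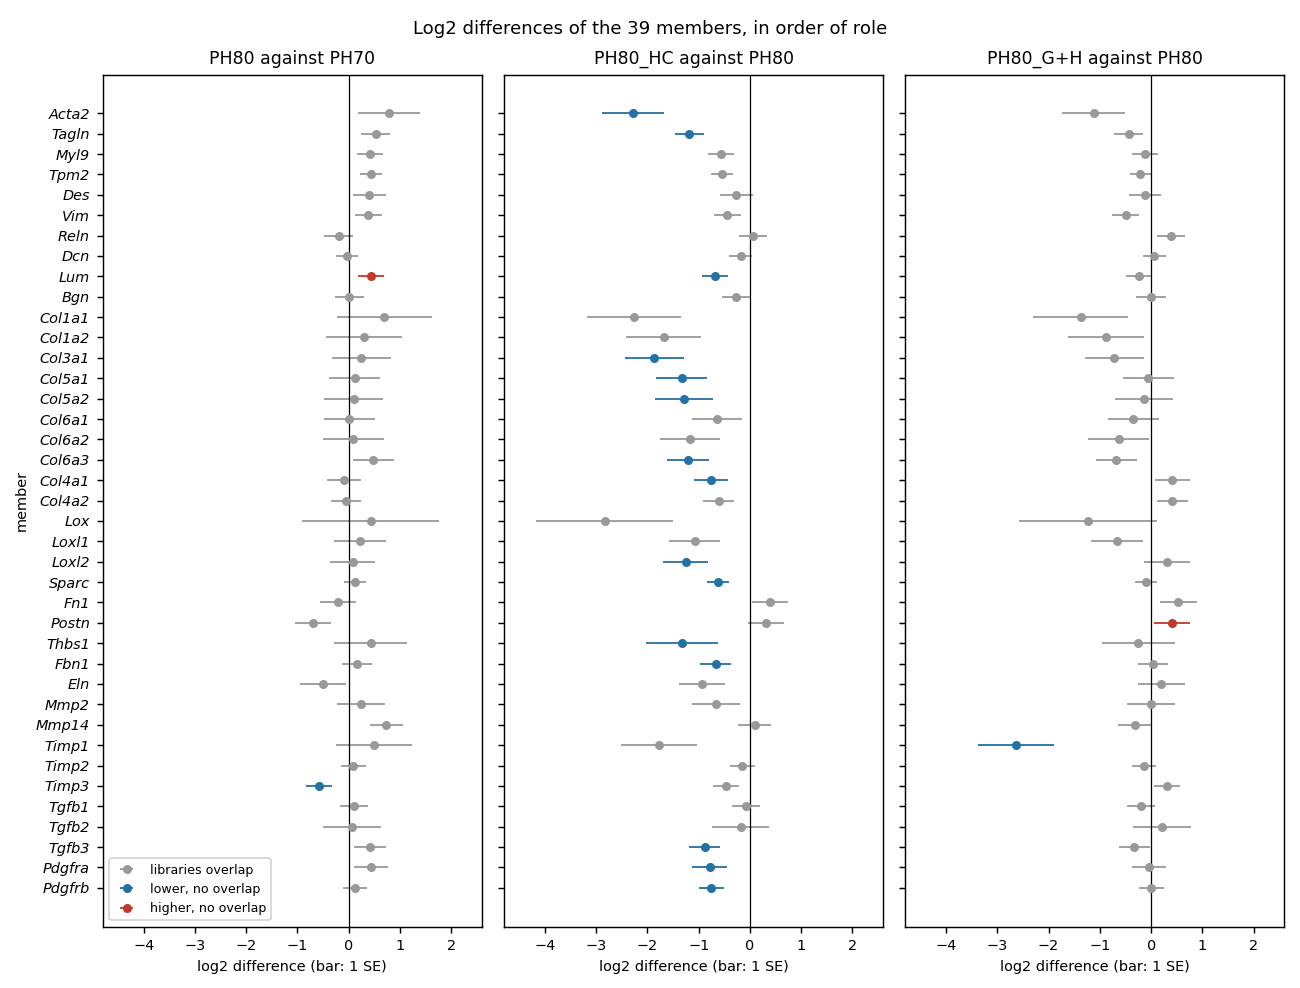
Log2 differences of the 39 genes (dots, with bars of 1 SE) in PH80 against PH70, PH80_HC against PH80 and PH80_G+H against PH80, in order of role. In the middle panel 35 of 39 dots lie left of 0 and 15 are marked as groups that do not overlap; the 3 panels share the PH80 libraries.

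The contractile genes encode parts of the smooth muscle type cytoskeleton. Acta2 (chr19:34241090-34255590), smooth muscle alpha-actin and the usual marker of activated stellate cells, stood at 95.6, 305 and 475 normalised reads in PH70 replicates 1, 2 and 3, and at 384, 629.5 and 297 in PH80. It stood at 161, 87.4 and 42.8 in PH80_HC and at 90.1, 351 and 217 in PH80_G+H. All 3 PH80_HC libraries lay below all 3 of PH80, while PH70 and PH80_G+H spread over most of the range between. The Acta2 log2 difference of PH80_HC against PH80 was -2.28 (SE 0.61), a fold of 4.87, with an adjusted p of 0.101.

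Tagln (chr9:45929619-45936058) encodes transgelin, an actin-binding protein of smooth muscle. It read 609, 594 and 636 in PH70, 1228, 519.6 and 1074 in PH80, 317, 395 and 463 in PH80_HC, and 519, 679 and 783 in PH80_G+H. The PH80_HC libraries were below every library of the other 3 groups, and PH80 replicate 2 was the low one of its own group. Against PH80 the Tagln difference was -1.18 (SE 0.28, 2.27-fold), with an adjusted p of 0.0692 by limma, 0.0452 by edgeR and 0.00168 by DESeq2. Without PH80 replicate 2 it was -1.57, with an adjusted p of 0.00916. Against PH70 the Tagln difference was -0.66 and against PH80_G+H it was -0.75, with adjusted p of 0.293 and 0.275.

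Myl9, a regulatory light chain of myosin, had means of 222 ± 6.49 in PH70, 312 ± 113 in PH80, 202 ± 40.2 in PH80_HC and 271 ± 18.9 in PH80_G+H (SD, n = 3 throughout). Tpm2, beta-tropomyosin, had means of 217 ± 9.12, 301 ± 81.8, 202 ± 25 and 254 ± 17.6 in the same order. Both overlapped between PH80 and PH80_HC, and for both all 3 PH80_G+H libraries lay above those of PH70. The median log2 difference of the 4 contractile genes in PH80_HC against PH80 was -0.88.

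Des encodes desmin, a filament protein of stellate and muscle cells. Its values were 163, 207 and 285 in PH70, 298, 368 and 203 in PH80, 202, 165 and 384 in PH80_HC, and 311, 239 and 235 in PH80_G+H. The 4 groups overlapped. Vim, vimentin, is a filament protein of most mesenchymal cells and had means of 1389 ± 501, 1768 ± 431, 1276 ± 55.9 and 1247 ± 267 in the same order, also with overlap of PH80_HC and PH80.

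Reln encodes reelin, a secreted protein that in liver marks stellate cells. It read 553, 658 and 1026 in PH70, 817, 472 and 643 in PH80, 604, 729.6 and 632 in PH80_HC, and 642, 1186 and 731 in PH80_G+H. The PH80_HC libraries lay inside the range of PH80, so Reln did not share the low position of Acta2 and Tagln there. Other genes of resting stellate cells were also spread over both signs in PH80_HC against PH80: 10 of 16 had a lower mean, the median log2 difference was -0.02, and limma called none of them.

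The proteoglycan genes differed less between libraries than the collagen genes did. Dcn, decorin, which binds collagen fibrils and TGF-beta, stood at 2445, 3797 and 3175 in PH70 and at 2501, 3427 and 3192 in PH80. It stood at 2429, 3466 and 2238 in PH80_HC and at 3052, 3581 and 2854 in PH80_G+H. These ranges overlapped in every pair of groups. Lum, lumican, a fibril-spacing proteoglycan, read 268, 446 and 511 in PH70, 527, 533 and 534 in PH80, 315, 367 and 317 in PH80_HC, and 333, 593 and 468 in PH80_G+H. All 3 Lum values of PH80 lay above those of both PH70 and PH80_HC, with log2 differences of 0.43 against PH70 (SE 0.25, adjusted p 0.329) and, for PH80_HC against PH80, -0.68 (SE 0.25, adjusted p 0.228). Bgn, biglycan, had means of 3285 ± 959, 3353 ± 1287, 2667 ± 231 and 3266 ± 852 in the order PH70, PH80, PH80_HC and PH80_G+H.

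The fibrillar collagen genes had the largest role median of log2 differences in PH80_HC against PH80, -1.69 over 5 genes, and also very large spreads within groups. Col1a1 (chr11:94936224-94953042), the alpha 1 chain of type I collagen, stood at 259, 1718 and 2647 in PH70 and at 1189.8, 7666 and 549 in PH80. In PH80_HC it stood at 713, 333 and 191, and in PH80_G+H at 364, 1137 and 695. PH80 replicate 2 was the highest of all libraries, and the highest value of PH80 was 14 times its lowest, so PH80 and PH80_HC overlapped. The Col1a1 log2 difference was -2.26 (SE 0.92, adjusted p 0.282), and without PH80 replicate 2 it was -1.18 (adjusted p 0.585).

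Col1a2, the partner chain of type I collagen, read 323, 1307 and 2049 in PH70, 1011, 3501 and 452 in PH80, 652, 351 and 209 in PH80_HC, and 381, 1083 and 615 in PH80_G+H. The order of the libraries within each group was the same as for Col1a1. Its log2 difference was -1.69 (SE 0.74, adjusted p 0.316), and -0.90 without PH80 replicate 2. Col3a1, type III collagen, an early collagen of healing tissue, read 1093, 3009 and 5008 in PH70, 2494, 6328 and 1746 in PH80, 1268, 897 and 502 in PH80_HC, and 1047, 3097 and 1899.6 in PH80_G+H. Here the PH80_HC libraries all lay below those of PH80, with a log2 difference of -1.86 (SE 0.58, 3.64-fold, adjusted p 0.15).

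Type V collagen nucleates the fibrils of types I and III. Col5a1 stood at 332, 926 and 260.4 in PH80 and at 245, 190.0 and 108 in PH80_HC, with 215, 406 and 711 in PH70 and 294, 618 and 391.6 in PH80_G+H. Col5a2 stood at 229, 532 and 174 in PH80 and at 169, 135 and 63.6 in PH80_HC, with 107, 322 and 506 in PH70 and 155, 421 and 241 in PH80_G+H. For both chains PH80_HC was below PH80 without overlap, by log2 differences of -1.33 for Col5a1 and -1.28 for Col5a2, with adjusted p of 0.239 and 0.327.

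Type VI collagen forms beaded filaments around cells, and its 3 genes had a median log2 difference of -1.17. Col6a3 stood at 336, 521 and 227 in PH80 and at 158, 152 and 134 in PH80_HC, with 157, 203 and 457 in PH70 and 131, 319.6 and 231 in PH80_G+H. PH80_HC was below PH80 without overlap (log2 difference -1.21, SE 0.40), with an adjusted p of 0.183 by limma and 0.0462 by DESeq2. Col6a1 and Col6a2 overlapped between those groups: Col6a1 had means of 487 ± 411 in PH80 and 257 ± 82.9 in PH80_HC, and Col6a2 had 386 ± 342 and 137 ± 49.9.

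Type IV collagen is the collagen of basement membranes, and its 2 genes start head to head on opposite strands. Their starts are 21 bases apart and the genes overlap there, with 22 shared exonic bases. Col4a1 read 1142, 1961 and 2796 in PH70, 1364, 2193 and 1723 in PH80, 1256, 1093 and 772 in PH80_HC, and 1599, 3510.4 and 2183 in PH80_G+H. Col4a2 read 858, 1351 and 1666, then 892, 1667 and 1159, then 912, 780.1 and 682, and then 1199, 2324 and 1458. PH80_G+H had the highest mean for both genes and PH80_HC the lowest. In PH80_HC against PH80_G+H the groups did not overlap, with log2 differences of -1.18 for Col4a1 and -1.02 for Col4a2 (adjusted p 0.186 and 0.188 by limma, 0.0284 and 0.0376 by DESeq2).

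Lysyl oxidases cross-link collagen and elastin. Lox was the scarcest of the 3, at 2.42, 121 and 93.7 in PH70, 33.8, 155 and 16.7 in PH80, 13.8, 16.8 and 0 in PH80_HC, and 7.36, 39.1 and 21.1 in PH80_G+H. Its values in PH70 alone differed by 49.8-fold, and the 0 is a library with 0 recovered reads of the gene. Loxl1 had means of 125 ± 72.4, 137 ± 70.5, 64.2 ± 31.2 and 83.7 ± 35.4. Loxl2 stood at 120.4, 203 and 299 in PH70, 214, 255 and 156 in PH80, 129, 118 and 40.2 in PH80_HC, and 167, 369 and 263 in PH80_G+H. The 3 Loxl2 values of PH80_HC were below all those of PH80 and of PH80_G+H, by -1.25 (adjusted p 0.205) and -1.56 (adjusted p 0.174 by limma, 0.03 by DESeq2).

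**Figure D2:**
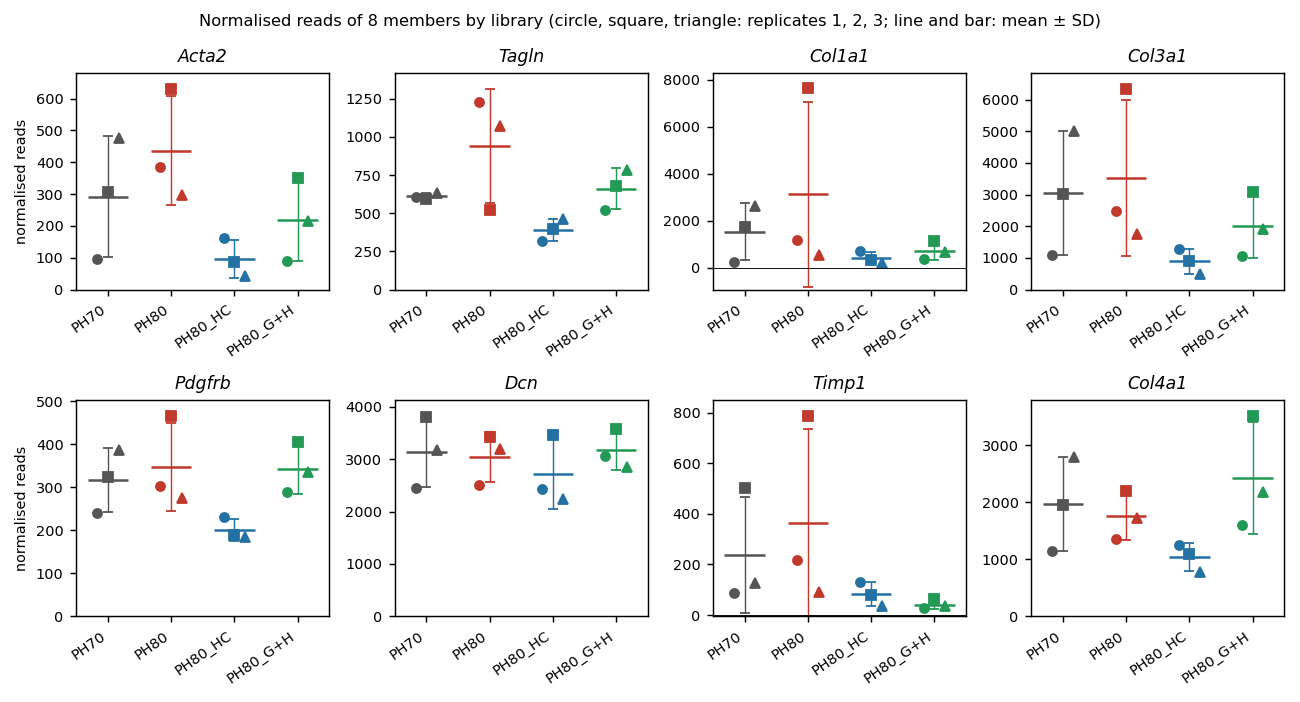
Normalised reads of Acta2, Tagln, Col1a1, Col3a1, Pdgfrb, Dcn, Timp1 and Col4a1 in each library (circle, square and triangle are replicates 1, 2 and 3; line and bar are the mean and SD of 3 libraries). Tagln is lower in every PH80_HC library than in any other, at 317 to 463, while Dcn overlaps between all groups and Col1a1 in PH80 runs from 549 to 7666.

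Among the glycoproteins, Sparc, a collagen-binding protein of remodelled matrix, read 3591, 5339 and 5501 in PH70, 4323, 6359 and 4919.6 in PH80, 3478, 3001 and 3576 in PH80_HC, and 3990.2, 5443 and 5088 in PH80_G+H. Its PH80_HC values were below those of all 3 other groups, with a log2 difference of -0.62 against PH80 (SE 0.22, adjusted p 0.208). Fbn1, fibrillin, the scaffold of elastic fibres, stood at 119.8, 133 and 248 in PH70, 166, 204 and 164 in PH80, 121, 116 and 97.3 in PH80_HC, and 119.6, 234 and 212 in PH80_G+H. Again PH80_HC was below PH80 without overlap, by a log2 difference of -0.67 (adjusted p 0.328).

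Thbs1, thrombospondin, which can activate TGF-beta, was scarce, with 40.8, 50.1 and 31.2 in PH80 and 21.9, 15.8 and 10.4 in PH80_HC, against 5.45 to 89.2 in PH70 and 26.5 to 47.5 in PH80_G+H. Eln, elastin, overlapped between PH80 and PH80_HC but not between PH70 (183, 366 and 426) and PH80_HC (161, 129 and 67.5), with a log2 difference of -1.44 (SE 0.45, adjusted p 0.204). Postn, periostin, a matrix protein of activated fibroblasts, lay at 145, 267 and 495 in PH70, 179, 169 and 150.0 in PH80, 268, 151 and 218 in PH80_HC, and 195, 268 and 199.9 in PH80_G+H. Its PH80_G+H values were all above those of PH80, by a log2 difference of 0.40 (adjusted p 0.717). Fn1, fibronectin, which hepatocytes also secrete into plasma, had means of 19656 ± 4972, 17021 ± 4240.1, 23504 ± 11045 and 24967 ± 8733.

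The proteases cleave collagen and basement membrane. Mmp14, a membrane-bound metalloproteinase that activates Mmp2, read 1591, 1826 and 2562 in PH70, 3382, 4743 and 2143 in PH80, 4839, 2201 and 3936 in PH80_HC, and 2932, 2867 and 2099 in PH80_G+H. Its log2 differences from PH70 were 0.74 in PH80 (SE 0.32, adjusted p 0.21) and 0.83 in PH80_HC (SE 0.32, adjusted p 0.27). Mmp14 thus had its highest mean in the group where most of the other genes had their lowest. Mmp2, which degrades type IV collagen, had means of 144 ± 55.6, 183 ± 119, 105 ± 30 and 179 ± 105.

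The inhibitors of these proteases did not share a pattern. Timp1, a secreted inhibitor that is strongly inducible in injured liver, read 89, 503 and 125 in PH70, 217, 787 and 92.7 in PH80, 131, 79 and 36.3 in PH80_HC, and 27.6, 61.8 and 36 in PH80_G+H. Every Timp1 value in PH80_G+H was below all those of PH70 and of PH80. The log2 difference of PH80_G+H against PH80 was -2.64 (SE 0.74, 6.23-fold), with an adjusted p of 0.225 by limma and 0.036 by DESeq2, and it was -1.82 without PH80 replicate 2 (adjusted p 0.598).

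Timp3, a matrix-bound inhibitor, had a lower mean in PH80 than in PH70. It stood at 274, 506 and 379 in PH70, 217, 264 and 273 in PH80, 166, 227 and 157 in PH80_HC, and 263, 406 and 277 in PH80_G+H. PH80 lay below PH70, with 273 and 274 as the closest pair (log2 difference -0.58, SE 0.25, adjusted p 0.202). PH80_HC lay below PH70 without overlap (log2 difference -1.05, SE 0.25), with an adjusted p of 0.112 by limma and 0.0154 by DESeq2. Timp2, an inhibitor that also takes part in Mmp2 activation, had means of 297 ± 115, 303 ± 39.9, 271 ± 9.37 and 276 ± 43.3, with overlap throughout.

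Of the TGF-beta ligands, Tgfb1 read 240.3, 366 and 466 in PH70, 364, 484 and 286 in PH80, 292, 324 and 457 in PH80_HC, and 366, 357 and 254 in PH80_G+H. The group means of this main fibrogenic ligand lay between 325 and 378, and all 4 groups overlapped. Tgfb2 was the scarcest of the 39 genes, with group means of 14 to 19.5. Tgfb3 stood at 49.2, 74 and 50 in PH80 and at 32.4, 31.6 and 27.2 in PH80_HC, against 32.1 to 51.3 in PH70 and 31.3 to 56.4 in PH80_G+H. It was the 1 ligand of the 3 with no overlap between PH80 and PH80_HC (log2 difference -0.88, SE 0.31, adjusted p 0.201).

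Both PDGF receptors were low in PH80_HC. Pdgfrb, the receptor of stellate cells and pericytes, read 240.3, 324 and 388 in PH70, 304, 466 and 275 in PH80, 231, 188 and 186 in PH80_HC, and 289, 405 and 336 in PH80_G+H. The PH80_HC libraries lay below every library of the other 3 groups, with a log2 difference of -0.75 against PH80 (SE 0.24, 1.69-fold, adjusted p 0.161). Pdgfra, the receptor typical of fibroblasts, stood at 80.5, 121 and 136 in PH70, 119.5, 208 and 131 in PH80, 104, 103 and 58.4 in PH80_HC, and 109, 222 and 124 in PH80_G+H. Its PH80_HC values were below all those of PH80 and of PH80_G+H, with a log2 difference of -0.79 against PH80 (SE 0.34, adjusted p 0.302).

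PH80 against PH70 addressed the extent of resection, and few of these genes separated there. Limma called 0 of 39 genes, while it called 3.82% of all tested genes; 2 of 39 had an unadjusted p under 0.05, against 21.4% of all tested genes. Neither edgeR nor DESeq2 called a member, while edgeR called 2.93% and DESeq2 7.56% of all tested genes. Lum lay higher without overlap, as 12.8% of tested genes did, and Timp3 lower, as 14.2% did. The mean was higher in PH80 for 31 of 39 genes with a median log2 difference of 0.16. Of all tested genes 48.6% were lower, and their median was 0.01. The median of the 39 was -0.25 without PH70 replicate 1 and -0.11 without PH80 replicate 2.

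PH80_G+H against PH80 addressed the G-CSF and HNF4a arm. Limma called 0 of 39 genes and 0.119% of all tested genes, 1 gene had an unadjusted p under 0.05, against 10.5% of all tested genes, and edgeR called none of the 39 and 0.0875% of all tested genes. DESeq2 called Timp1 alone, and 1.62% of all tested genes. Postn was higher without overlap, as 8.82% of tested genes were, and Timp1 lower, as 8.11% were. The median log2 difference was -0.14, and 0.02 without PH80 replicate 2. Against PH70, limma called 0 of 39 in PH80_G+H and 0.00796% of all tested genes, 1 had an unadjusted p under 0.05, against 5.97%, and the other tools called none (edgeR 0.00796% and DESeq2 0.525% of all tested genes). There Myl9 and Tpm2 were higher without overlap (5.95% of tested genes) and Timp1 lower (7.57%).

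The remaining comparisons of PH80_HC share its libraries and so are not independent of the first. Against PH70, 35 of 39 genes had a lower mean in PH80_HC, against 49.7% of all tested genes. The median log2 difference of the 39 was -0.63, or -0.25 without the library of each group whose values ran most with length. Limma called 0 of 39 and 0.231% of all tested genes, 12 had an unadjusted p under 0.05 against 15.8%, edgeR called none (0.119% of all tested genes) and DESeq2 called Timp3, with 2.01% of all tested genes. Eln, Pdgfrb, Sparc, Tagln and Timp3 were lower without overlap, as 9.07% of tested genes were, and 0 were higher, as 7.96% were.

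Against PH80_G+H, 35 of 39 genes again had a lower mean in PH80_HC, against 48.1% of all tested genes. The median of the 39 was -0.54, or -0.17 without the same 4 libraries, where the Loxl2 difference was -0.76. Without those 4 libraries the median of PH80_HC against PH80 was -0.68. Limma called 0 of 39 and 0.255% of all tested genes, 11 had an unadjusted p under 0.05 against 13.6%, edgeR called none (0.374% of all tested genes), and DESeq2 called Loxl2, Col4a1 and Col4a2, with 2.43% of all tested genes. Lower without overlap, as 8.4% of tested genes were, were 12 members: Col4a1, Col4a2, Col5a1, Loxl2, Myl9, Pdgfra, Pdgfrb, Sparc, Tagln, Thbs1, Timp3 and Tpm2. None was higher without overlap, as 8.71% of tested genes were. In a test over all 4 groups together limma called 0 of 39 and 1.85% of all tested genes, and 10 members had an unadjusted p under 0.05, against 19.1%. There edgeR called none (1.71% of all tested genes) and DESeq2 called Timp3, Tagln and Timp1 (9.76%), while limma without PH80 replicate 2 called Tagln (1.41%).

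**Figure D3:**
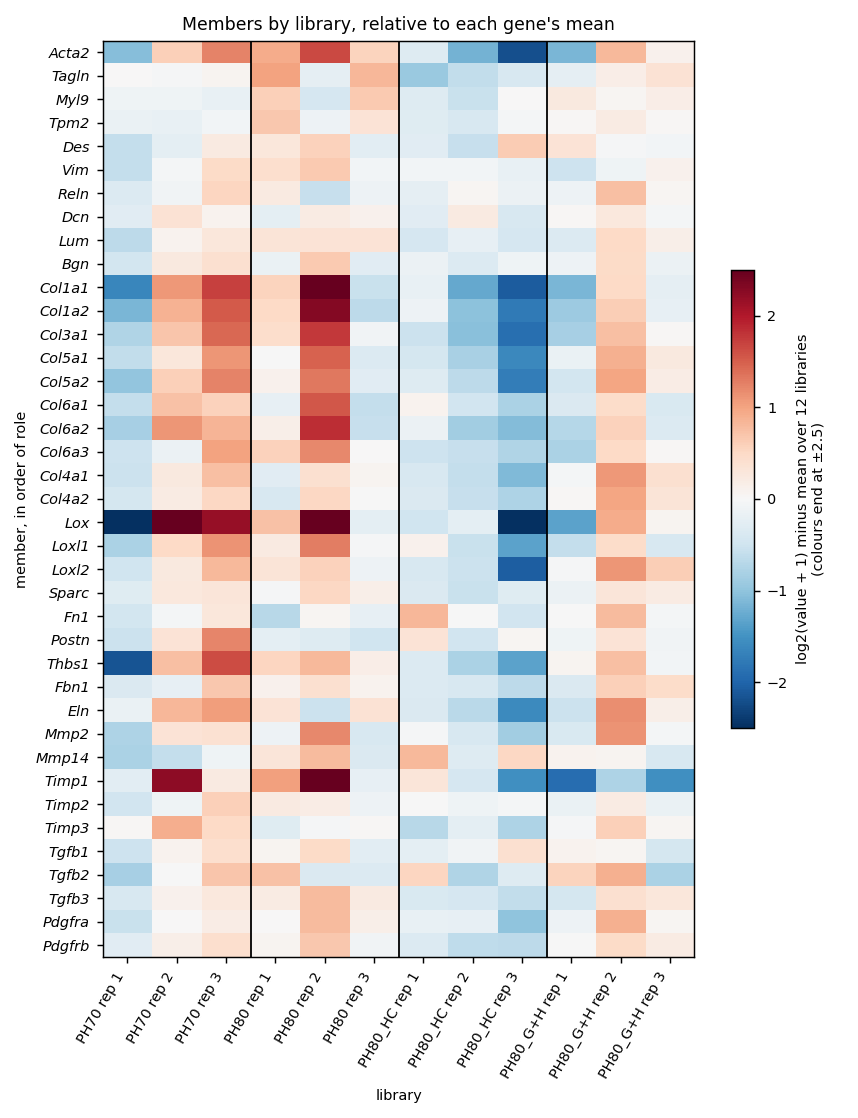
Log2(value + 1) of each of the 39 genes minus its mean over 12 libraries, by library, with colours ending at ±2.5. PH80 replicate 2 and PH70 replicate 3 are high for most collagens, PH70 replicate 1 is low for most genes, and the PH80_HC libraries are low for most.

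Per kilobase of the longest transcript, averaged over 12 libraries, the levels of the 39 genes spanned from Fn1 at 2560.1 normalised reads per kilobase, Sparc at 1979 and Bgn at 1179 down to Lox at 9.14, Thbs1 at 5.92 and Tgfb2 at 3.18. On this scale Col3a1, at 425, stood above Col1a1, at 245, and Col1a2, at 186. Acta2 stood at 128, below Tagln at 408 and Myl9 at 223.

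The spread between libraries of 1 group was wide for the collagen genes. The within-group SD of log2(value + 1) was 1.46 for Col1a1, larger than that of 99.5% of tested genes, 1.16 for Col1a2, 0.90 for Col3a1 and 2.10 for Lox. The median of all tested genes was 0.32. Of the contractile genes, Tagln at 0.39 and Myl9 at 0.34 were above it, Tpm2 at 0.23 was below it, and Acta2, at 0.95, exceeded 97.4% of tested genes. The steadiest of the matrix genes were Sparc at 0.26 and Dcn at 0.27, and Pdgfrb had an SD of 0.31.

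The high and low libraries were largely shared between genes. PH80 replicate 2 was the highest of its group for 29 of 39 genes, against 34.2% of all tested genes, and PH70 replicate 3 for 32, against 35.5%. PH80_HC replicate 1 was the highest for 27, against 30.1%, and PH80_G+H replicate 2 for 33, against 40.8%. The lowest of its group was PH70 replicate 1 for 36 of 39, against 35.3% of all tested genes, and PH80_HC replicate 3 for 26, against 37.1%. Some of these libraries were also the ones with steep length slopes: 0.222 in PH70 replicate 3, 0.228 in PH80_G+H replicate 2 and -0.277 in PH80_HC replicate 3, but -0.0076 in PH80 replicate 2. The part of the length trend in this sharing was not tested.

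Likeness to Col1a1 was measured as the correlation of deviations from the group means over 12 libraries, for the 38 other genes, with an exact two-sided permutation test over the 1296 orders within groups, whose smallest p is 0.000772. Col1a2 was the most alike, with Pearson's r of 0.994 and Spearman's rho of 1 (exact permutation p 0.000772 for each), and r stayed 0.992 without the 2 libraries farthest from the median of Col1a1. Pdgfrb (r 0.974), Col6a2 (0.972), Col3a1 (0.969), Col5a1 (0.966), Col5a2 (0.954), Col6a1 (0.954), Loxl1 (0.944) and Mmp2 (0.93) followed. These 9 genes were 9 of 38 with an r of at least 0.9, against 0.239% of the 12569 other tested genes. An unadjusted exact permutation p under 0.05 was reached by 27 of 38 for r, against 14.9% of tested genes, and by 26 for rho, against 15.3%. Adjusted over all 12569 genes, no gene of the table passed, the adjusted p of Col1a2 being 0.176 for r and 0.183 for rho by the exact permutation test. Libraries of a group share their depth and length trend across genes. Over 3 alternatives, removal of the length and GC trend among them, the r of Col1a1 was 0.937 to 0.974 with Pdgfrb, 0.962 to 0.973 with Col3a1 and 0.993 to 0.994 with Col1a2.

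Tagln, Myl9 and Tpm2 were the 3 genes of 38 with a negative r to Col1a1, whereas 48.5% of tested genes had one. Myl9 had r -0.719 and rho -0.776 (exact permutation p 0.0208 and 0.00926, adjusted 0.287 and 0.273), and its r was -0.372 with the length and GC trend removed. Tagln had r -0.542 (exact permutation p 0.215), and -0.376 with that trend removed, and Tpm2 had r -0.447 (exact permutation p 0.417). For Acta2, r was 0.881 and rho 0.93 (exact permutation p 0.000772 for each), and r was 0.873 with the trend removed. PH80 shows both: its replicate 2 was highest for Acta2, at 629.5, and for Col1a1, and lowest for Tagln, at 519.6, and for Myl9 and Tpm2. Col4a1 and Col4a2, which share a start region, had r of 0.965 and rho of 0.965 with each other (exact permutation p 0.000772), and 0.945 without the 2 farthest libraries.

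**Figure D4:**
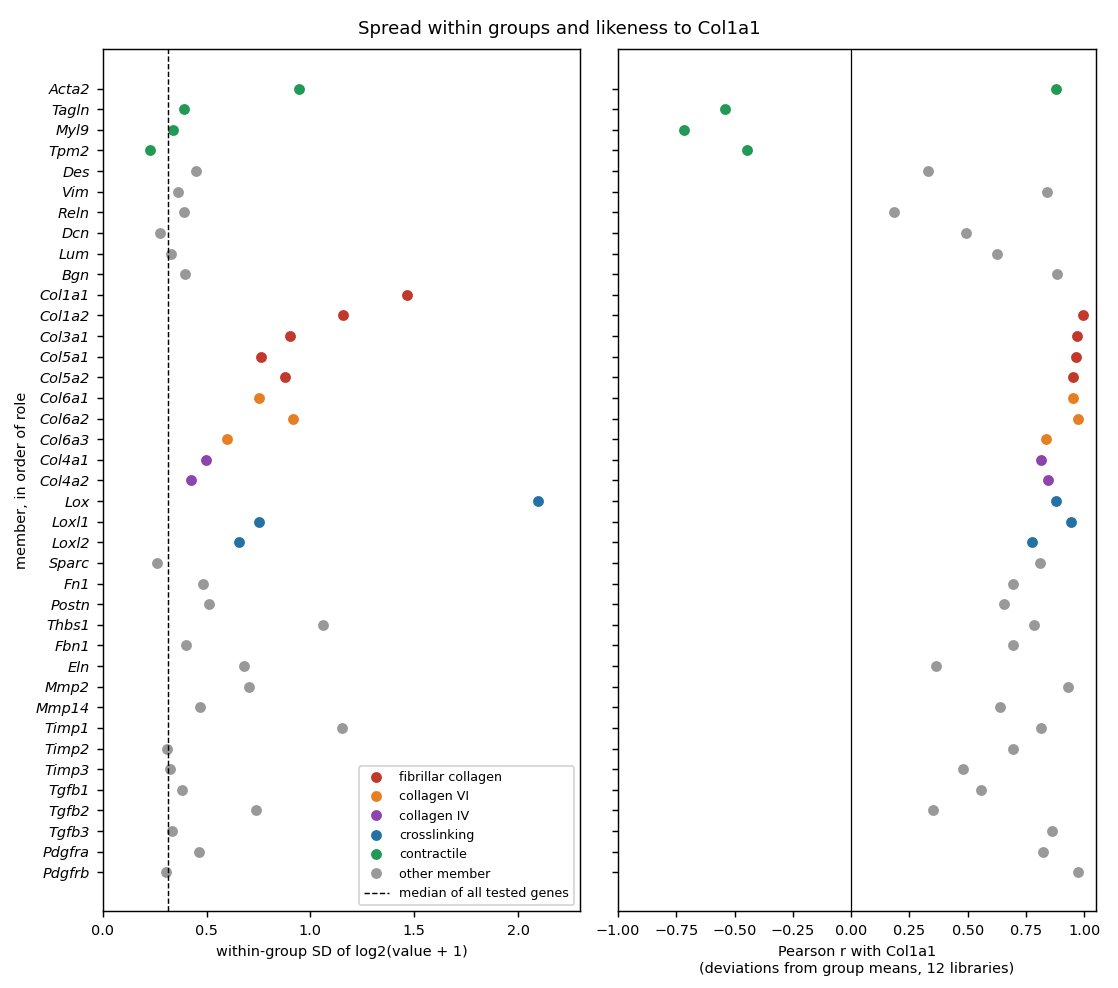
Left, the within-group SD of log2(value + 1) of each gene, with the median of all tested genes (0.32) as a dashed line; right, Pearson's r with Col1a1 of deviations from the group means over 12 libraries. Fibrillar and type VI collagens lie to the right in both panels, while Tagln, Myl9 and Tpm2 lie left of 0 in the right one.

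Genes that act beside these members were read in PH80_HC against PH80 as well. Of 15 tested genes of collagen processing, limma called 1, Serpinh1, the collagen chaperone of the endoplasmic reticulum, which fell. It stood at 1489, 1647 and 1392 in PH80 and at 619.5, 549.5 and 572 in PH80_HC, against 689 to 1426 in PH70 and 793 to 1643 in PH80_G+H. The Serpinh1 log2 difference was -1.38 (SE 0.29, 2.59-fold), with an adjusted p of 0.0397; 12 of 15 genes of its list had a lower mean and the list's median was -0.50. Leaving out any 1 of the 6 libraries of PH80 and PH80_HC ended its call, with adjusted p of 0.0818 to 0.116, as did leaving out PH70 replicate 2 (0.0555) or PH80_G+H replicate 3 (0.0653), or fitting no intensity trend (0.0782).

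Of 15 other contractile genes limma called Tpm4, a non-muscle tropomyosin, which fell from 2055, 1825 and 2399 in PH80 to 1084, 1275 and 966 in PH80_HC (log2 difference -0.92, SE 0.17, adjusted p 0.0275). The call was lost without PH80 replicate 1 (0.0849) or 3 (0.0853), PH80_HC replicate 1 (0.0785) or 3 (0.0676), PH70 replicate 2 (0.0513) or PH80_G+H replicate 3 (0.052). The other contractile list had a median of -0.39, with 13 of 15 lower. Other matrix genes had a median of -0.50 with 26 of 30 lower and matrix proteases -0.80 with 12 of 13 lower, with no gene called in either list. TGF-beta pathway genes had a median of -0.14, with 14 of 22 lower and none called. PDGF ligands and matrix receptors had no gene called in any comparison.

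In the other comparisons, limma called Loxl4, a lysyl oxidase-like gene, which rose in PH80 against PH70 from 93.8, 157 and 216 to 378, 413 and 648 (log2 difference 1.66, adjusted p 0.0399), and Ltbp4, a latent TGF-beta binding protein, which fell from 519, 689 and 747 to 329, 385 and 293 (-0.95, adjusted p 0.0496). The Loxl4 call was lost without PH70 replicate 1 or 2, any PH80 library, or PH80_G+H replicate 1 or 3 (adjusted p 0.0537 to 0.133) and with no intensity trend (0.0692). The Ltbp4 call was lost without any 1 library other than PH80_HC replicates 1 and 3 (0.0586 to 0.185), with edgeR (0.0553), no filter (0.051), no intensity trend (0.0769) and the same total (0.096). Ngfr, a neurotrophin receptor found on stellate cells, fell in PH80_HC against PH80_G+H, from 302, 357 and 349 to 167, 153 and 136 (-1.14, adjusted p 0.0258), a call that was lost without PH70 replicate 2, PH80_HC replicate 2 or 3, or any PH80_G+H library (0.0588 to 0.159). Of its list of 16 genes of resting stellate cells, 10 had a lower and 6 a higher mean in that comparison, with a median of -0.07. Thy1, a marker of portal fibroblasts and lymphocytes, passed the test over the 4 groups (adjusted p 0.0387): it read 97.2, 153 and 176 in PH80_HC and 29.4 to 85.8 in the other libraries. Its list of 11 tested portal fibroblast and mesothelial genes mostly went the other way. In PH80_HC 7 of 11 had a lower mean than in PH80 (median log2 difference -0.10), and 9 of 11 a lower mean than in PH70 (-0.68).

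Markers of other cell types moved with some of these libraries. The summed level of 11 macrophage genes was 26756 to 43890 in PH80_HC, 15846 to 35152 in PH80, 13135 to 17530 in PH70 and 15144 to 21890 in PH80_G+H. All 11 had a higher mean in PH80_HC than in PH80, with a median log2 difference of 0.56, though none was called. Of all tested genes, 48.5% had a lower mean in PH80_HC than in PH80. Of 7 hepatocyte genes 6 had a higher mean in PH80_HC than in PH80, with a median of 0.50. Higher without overlap were 3 of them, as 8.26% of tested genes were. The summed level of the 7 hepatocyte genes was 2753110 to 4221080 in PH80_HC and 2084630 to 2429350 in PH80. In PH80 replicate 2, the library with the highest Col1a1, the sum of 10 neutrophil genes was 5964, against 307 in the lowest library of that group. Other groups went the other way. PH80_HC replicate 3 had the highest neutrophil sum of its group, 2308, and its lowest Col1a1. PH80_G+H replicate 2 had the lowest neutrophil sum of its group, 374, and its highest Col1a1. The sum of 6 cholangiocyte genes was 1135 to 11921 in PH70 and 2043 to 6542 in PH80. It was 881 to 3113 in PH80_HC and 1244 to 2311 in PH80_G+H. Neutrophil sums were 144 to 499 in PH70, 611 to 2308 in PH80_HC and 374 to 2398 in PH80_G+H, and Ly6g, Camp, Ltf, Ngp and Mpo were at 0 in at least 1 library. The sum of 12 portal fibroblast and mesothelial genes was 687 to 908.5 in PH70, 503 to 681 in PH80, 448 to 786 in PH80_HC and 289 to 553 in PH80_G+H, with Gli1 at 0 in at least 1 library. The sum of 12 endothelial genes was 5491 to 10754 in PH80_HC and 6212 to 9366 in PH80, with none at 0. The part of these cells in the values above was not tested.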

How the data were processed

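The authors deposited 1 table of normalised values per gene and library (TruSeq Stranded mRNA libraries, per the labels' protocols). DESeq2 and the builds GRCm38 and mm10 are named in the submitters' processing notes; aligner and counter are not given there. The deposited values are a signal, whole read counts divided by 1 factor per library: 100% of the values came back whole within 0.01. Genes with 10 or more in at least 3 libraries were tested with limma 3.58.1 (R 4.3.3) on log2(value + 1), on all 12 libraries with the group as the single term and an intensity trend, and p-values were adjusted over all 12570 genes. Alternatives were a pseudocount of 5, no filter, no trend, edgeR 4.0.16 and DESeq2 1.42.0 on recovered reads, equal totals, a removed length and GC trend, a replicate block and each library left out. Scripts were tested on simulated data, in which PH80_HC against PH80 held 100 genes changed 2-fold and 100 changed 4-fold. Limma recovered 36 and 97 of these with 3 false calls, edgeR 35 and 97 with 2, and DESeq2 56 and 99 with 28. A member that was not called may therefore still differ 2-fold. The changed genes were not chosen for the spread of the members, whose median within-group SD was 0.48, against 0.32 for all tested genes. Members with a wide spread may differ by more and not be called. In PH80_HC against PH80 limma did not call Acta2 (4.87-fold), Col1a1 (4.79-fold) or Lox (7.13-fold). The members and lists were chosen with earlier results of these data known. All 39 members are named; values by library are given for members apart between groups or called by a tool, for 12 preset genes, and for up to 4 called genes a list.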

Additional observations from a re-analysis of the deposited data

How the results depend on the processing

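With the settings above limma called 0 of the 39 genes in every comparison, against 0.00796% to 3.82% of all tested genes. For PH80_HC against PH80 edgeR called 1 (0.923% of all tested genes) and DESeq2 2 (4%). Limma called 1 with every library at the same total (0.572%) and 1 with the length and GC trend removed (2.07%). With single libraries left out the count was 0 to 1, the 1 being Tagln without PH80 replicate 2 (0.679%). DESeq2 called 1 in PH80_G+H against PH80 (1.62% of all tested genes), 1 in PH80_HC against PH70 (2.01%) and 3 in PH80_HC against PH80_G+H (2.43%). In the test over the 4 groups DESeq2 called 3, against 9.76% of all tested genes. There limma with single libraries left out called 0 to 1 (1.41% without PH80 replicate 2). Genes of PH80_HC below PH80 without overlap numbered 15 (7.38% of all tested genes), 25 at the same total (18.9%), and 17 to 23 with a library left out (10.9% to 13.7%). Some alternatives cannot change a log2 difference: no intensity trend, no filter, a replicate block, and leaving out a library of a group not compared. With these included, no direction reversed among the printed differences of single genes, 34 of members and 5 of other genes, under 21 alternatives each. Of these 819 values, 51 lost a call, all of them of Serpinh1, Tpm4, Loxl4, Ltbp4 and Ngfr, since no member had a call to lose, and 11 of members gained one; the cause was not tested. Median log2 differences over the alternatives ran from -1.01 to -0.57 for PH80_HC against PH80, -0.84 to -0.25 for PH80_HC against PH70 and -0.81 to -0.17 for PH80_HC against PH80_G+H, while the other 3 comparisons took both signs. With a replicate block 0 members were called, and Tpm4 (adjusted p 0.054), Loxl4 (0.0704), Ltbp4 (0.068) and Ngfr (0.0688) were not called. Same-numbered libraries had correlations of -0.367 to 0.373 over 18 pairs, 6 of them over 0.1. Differently numbered libraries had correlations of -0.527 to 0.428 over 36 pairs, 14 of them over 0.1. These values gave no sign that the numbers pair the libraries, though a weak pairing could go unseen. Leaving out, in each group at once, the library whose values ran most with length was an alternative chosen after seeing the data; it called 0 members and ended the calls of Serpinh1 (adjusted p 0.106), Tpm4 (0.123), Ltbp4 (0.0927) and Ngfr (0.225). Scarce genes rest on few reads, down to 0 for Lox and 8 for Tgfb2 and Thbs1.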
